A study of Mus musculus with 20 samples.

Results

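Messenger RNA of 38 erythroid and heme synthesis genes was followed in the shaft of the mouse femur. The members were fixed by name: globins, the enzymes and mitochondrial carriers that make heme, erythroid transcription factors, receptors, and proteins of the red cell membrane. A member was measured through every probe set annotated to its symbol and called present on 5 or more of 20 arrays. Of the 38, 33 had such a probe set named for them alone, among 12430 genes so measured in all. Counts and values of a gene are those of its brightest probe set unless another is named. Hba-a1 and Hbb-b1, adult globin genes, were measured only through probe sets that also name other globin genes. Xk, a blood group protein gene, had 2 probe sets, neither present on 5 arrays, and Epb41 and Trim58 had no probe set in the gene table.

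The study asked how the Hyp mutation, the mouse model of X-linked hypophosphatemia, changes expression in bone. The 4 groups, of 5 arrays each, were Hyp/Y hemizygous males, Hyp/+ heterozygous females, and normal littermates of each sex, all on the C57BL/6J background and 5 weeks old. Shafts were cut free of the bone ends and flushed with saline to clear marrow, and each array held pooled RNA of 2 mice of one sex and genotype. The arrays form 5 series, each with 1 array of every group, matched for littermates and handling, which gives 10 Hyp and normal pairs of one sex.

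Red cells form in the marrow from progenitors that answer to erythropoietin, divide several times, fill with hemoglobin and lose their nucleus. Heme is made partly in the mitochondrion and partly in the cytosol, starting with the enzyme encoded by Alas2. Gata1, Tal1, Klf1 and Nfe2 encode transcription factors of the lineage, and the late steps bring band 3, spectrin, ankyrin and the Rh complex to the membrane.

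The defining markers of the lineage, Slc4a1, Car1 and Alas2, were called present on all 20 arrays, so the flushed shafts held erythroid RNA. Between 49.3% and 56.9% of probe sets were called present per array, and the trimmed mean signal was 500.0 on every array. The 3′ to 5′ signal ratio of actin, a measure of RNA integrity, was higher in Hyp in 9 of 10 pairs, by 0.14 ± 0.087 on the log2 scale (SD, n = 10). The mean ratio was 1.59 ± 0.12 in normal and 1.78 ± 0.09 in Hyp males, and 1.5 ± 0.079 in normal and 1.62 ± 0.065 in Hyp females (SD, n = 5).

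For 31 of the 38 members the RefSeq table of GRCm38.p6 held the stretch from 250 bases before to 50 bases after the gene's start. Those of Alas2, Epor, Rhag, Mfsd2b and Add2 are shown here because these genes are followed array by array. Each is read 5′ to 3′ on the strand of its gene. No stretch was held for Slc4a1, Car1 and Nfe2, and that of Hba-a1, measured only through shared probe sets, is not shown. Capitals mark AGATAA or TGATAA, letters that GATA factors bind, and CCNCNCCC, letters that factors of the Klf family bind, on either strand, where matches may overlap.
Alas2, chrX:150547167-150547466, plus strand: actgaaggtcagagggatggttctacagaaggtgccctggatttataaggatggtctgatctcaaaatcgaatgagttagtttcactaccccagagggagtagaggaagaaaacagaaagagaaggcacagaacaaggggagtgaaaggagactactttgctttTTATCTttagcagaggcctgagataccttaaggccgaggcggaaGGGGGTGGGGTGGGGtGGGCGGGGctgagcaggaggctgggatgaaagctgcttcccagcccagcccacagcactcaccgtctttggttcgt
Epor, chr9:21963527-21963826, minus strand: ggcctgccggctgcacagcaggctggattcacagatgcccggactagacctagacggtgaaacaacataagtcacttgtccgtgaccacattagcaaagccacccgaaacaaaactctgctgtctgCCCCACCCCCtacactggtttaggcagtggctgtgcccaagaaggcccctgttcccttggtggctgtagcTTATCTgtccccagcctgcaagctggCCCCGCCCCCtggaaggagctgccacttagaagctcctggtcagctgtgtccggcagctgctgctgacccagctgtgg
Rhag, chr17:40810899-40811198, plus strand: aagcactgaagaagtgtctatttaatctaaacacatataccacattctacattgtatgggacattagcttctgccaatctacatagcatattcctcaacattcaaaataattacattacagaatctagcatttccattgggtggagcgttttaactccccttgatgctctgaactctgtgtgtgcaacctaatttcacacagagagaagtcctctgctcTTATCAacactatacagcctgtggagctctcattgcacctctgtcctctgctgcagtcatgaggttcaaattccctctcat
Mfsd2b, chr12:4874310-4874609, minus strand: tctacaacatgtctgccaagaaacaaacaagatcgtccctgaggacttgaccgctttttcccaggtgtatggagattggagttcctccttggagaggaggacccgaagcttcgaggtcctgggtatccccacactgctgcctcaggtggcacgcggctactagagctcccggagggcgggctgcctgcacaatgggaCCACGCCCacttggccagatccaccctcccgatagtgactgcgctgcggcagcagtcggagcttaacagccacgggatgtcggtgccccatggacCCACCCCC
Add2, chr6:86028431-86028730, plus strand: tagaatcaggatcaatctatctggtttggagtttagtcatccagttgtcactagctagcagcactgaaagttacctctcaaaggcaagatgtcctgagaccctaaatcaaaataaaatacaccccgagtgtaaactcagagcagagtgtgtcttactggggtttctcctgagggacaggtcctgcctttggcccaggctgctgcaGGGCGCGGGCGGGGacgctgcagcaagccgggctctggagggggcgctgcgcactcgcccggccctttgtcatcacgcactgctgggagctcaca
A match to AGATAA or TGATAA stood in at least 1 promoter of 15 of the 31 members, among them Alas2, Epor and Rhag. Of all 32851 promoters in the table, 18.6% held one, against 40.5% of the 37 promoters of members. CCNCNCCC was found for 23 of 31 members and in 70.3% of their promoters, against 49.5% of all promoters. CANNTG, the E-box to which Tal1 binds with its partners, stood in 67.6% of the members' promoters and 72.3% of all. The promoters of Mfsd2b and Add2 held CCNCNCCC and neither GATA sequence. A match describes letters in this window and does not show that a factor binds.

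Over both sexes, erythroid and heme synthesis messages were higher in Hyp shafts for 32 of 33 members, with a median difference of 0.44 on the log2 scale. That median ran from 0.22 without series 1 to 0.612 without series 3 when 1 series or array was left out. The median over all 27141 probe sets tested was 0.01, with 52.4% above 0. By their brightest probe sets 2 of 33 members rose, Mfsd2b and Add2, past an adjusted p of 0.05 in limma's fit with series as a block, where 1.08% of all probe sets were called higher. Tspan33 passed through another of its 3 probe sets, by 0.62 ± 0.15 with an adjusted p of 0.0405 in limma, and not through its brightest. No member fell, against 1.30% of all probe sets called lower. At an unadjusted p under 0.05, 22 members were higher and 0 lower, against 11.5% and 8.73% of all probe sets. In RNA of a whole shaft, more or fewer cells of a type and more or less RNA per cell cannot be told apart.

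Differences were larger in males, although no member was called for an interaction of genotype and sex. In Hyp/Y males against normal males the median over the members was 0.74, with 31 of 33 above 0. No member passed the adjusted threshold in limma, which 0.0995% of all probe sets passed, and 29 were higher at an unadjusted p under 0.05 against a background of 10.3%. In 0 of 33 members did every Hyp male exceed every normal male, as happened in 1.58% of all probe sets. In Hyp/+ females the median was 0.13, with 28 of 33 above 0. None passed the adjusted threshold in females, which 0.00368% of all probe sets passed, and 2 members, Mfsd2b and Add2, were higher at an unadjusted p under 0.05 against 4.82% of all. In the authors' deposited table, from an analysis of variance on linear signals, genotype was past p < 0.05 for 18 of 33 members and 20.4% of all probe sets tested.

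The male difference was uneven across the series. The median over members was 1.67 in male pair 1, 1.21 in pair 2, -0.18 in pair 3, 0.66 in pair 4 and 0.22 in pair 5, whereas the median over all probe sets stayed between -0.02 and 0.04. Of the 33 members, 31 were higher in both of the first pairs, 21 of them by more than 1 log2 unit in each, and only 5 were higher in pair 3. In females the medians of pairs 1 to 5 were 0.36, 0.13, -0.31, 0.65 and -0.15. All 33 were higher in female pair 4 and 3 in female pair 3. Fitted on series 1 and 2 alone the male median was 1.5, and on series 3 to 5 alone it was 0.235. Without series 4 the female median was -0.0114.

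**Figure D1:**
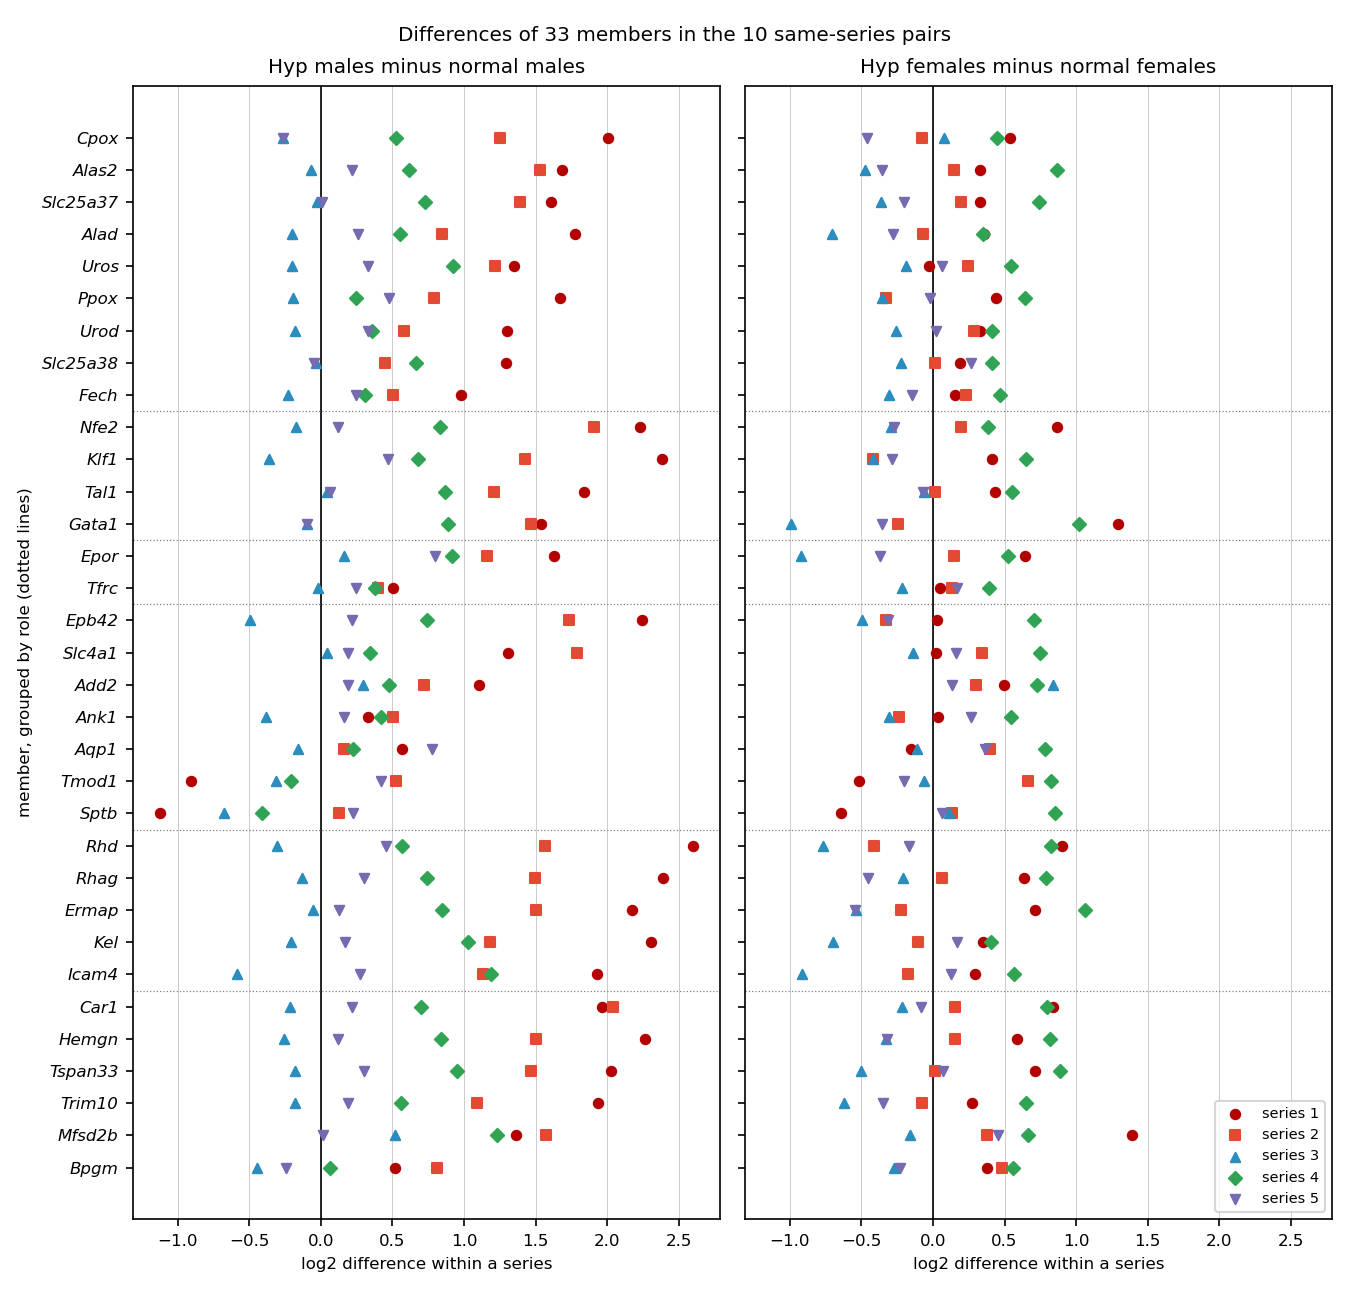
Log2 difference, Hyp minus normal, of each of 33 members (vertical axis, grouped by role) in each of the 5 male and 5 female pairs; symbols stand for series. In males series 1 lies right of 0 for all but Sptb and Tmod1 and series 2 for all 33, while series 3 lies left of 0 for 28. In females every member but Add2 has symbols on both sides of 0.

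The 7 enzymes and 2 carriers of heme synthesis were all higher in Hyp males, by 0.36 (Fech) to 0.80 (Alas2), with a median of 0.65. None was called after adjustment, and all 9 were higher at an unadjusted p under 0.05, as were 10.3% of all probe sets. The Alas2 signal in series 1 to 5 was 3160, 2787, 7128, 3095 and 5396 in normal males and 10213, 8086, 6776, 4742 and 6271 in Hyp males. In females it was 3528, 3288, 3867, 1937 and 3364 in normal mice and 4435, 3648, 2779, 3552 and 2620 in Hyp mice. The Hyp males of series 1 and 2 stood highest, the normal male of series 3 stood above 3 of the Hyp males, and the female groups overlapped over most of their range. Alas2, the first and erythroid-specific enzyme of the pathway, differed by 0.80 ± 0.25 (SE) in males with an adjusted p of 0.123 in limma, and by 0.10 ± 0.25 in females with an adjusted p of 0.93.

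By their brightest probe sets the later enzymes had smaller values. Male differences were 0.65 for Alad, 0.72 for Uros and 0.48 for Urod, which act in the cytosol. They were 0.65 for Cpox and 0.60 for Ppox, which act in the mitochondrion, and 0.36 for Fech, which inserts the iron. Slc25a37, the mitochondrial iron importer mitoferrin, differed by 0.74 ± 0.23 in males, and Slc25a38, a mitochondrial glycine carrier, by 0.46 ± 0.18. In females the 9 values ran from -0.07 (Alad) to 0.16 (Urod), and every 95% interval held 0. Other probe sets of Cpox gave -0.18 and -0.16 in females, against 0.105 for its brightest, so they disagree in sign. The other probe set of Alad gave 0.04 in females and 0.97 ± 0.36 in males, where it stood above Alas2. Uros had an adjusted p of 0.114 in males in limma, and Urod 0.148 through its brighter and 0.102 through its other probe set.

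All 4 transcription factors were higher in Hyp males, by 0.74 (Gata1) to 0.98 (Nfe2), and none passed adjustment. Nfe2, the erythroid factor that acts at the globin genes, gave signals of 789, 669, 2424, 995 and 1651 in normal males and 3768, 2548, 2145, 1779 and 1796 in Hyp males. In females they were 850.1, 778, 1400, 708 and 1049 in normal mice and 1561, 894, 1139, 929 and 865 in Hyp mice. The normal male of series 3 exceeded its Hyp partner, and the groups overlapped in both sexes. For Nfe2 the difference was 0.98 ± 0.28 in males and 0.18 ± 0.28 in females, with adjusted p of 0.104 and 0.882 in limma. Tal1, needed for the lineage to form, differed by 0.81 ± 0.20 in males with an adjusted p of 0.0893 in limma, Klf1, an activator of adult beta globin, by 0.92 ± 0.27 and Gata1, the master factor of the lineage, by 0.74 ± 0.30. Female values were -0.01 for Klf1, 0.14 for Gata1 and 0.17 for Tal1.

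Epor, the erythropoietin receptor, had the lowest adjusted p in males among the members' brightest probe sets. Its signal was 362, 294, 699, 333 and 406 in normal males and 1154, 677, 782, 640.3 and 716 in Hyp males. In females it was 386, 301, 592, 254 and 448 in normal mice and 613, 335, 305, 372 and 342 in Hyp mice. Each Hyp male exceeded its normal partner, although the normal male of series 3 lay above 2 of the Hyp males, and the female groups overlapped throughout. The difference was 0.93 ± 0.21 in males (adjusted p = 0.0743 in limma) and 0.00 ± 0.21 in females (adjusted p = 0.997). Tfrc, the transferrin receptor through which erythroblasts take up iron and which dividing cells of other kinds also carry, differed by 0.30 ± 0.11 in males and 0.11 ± 0.11 in females.

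The 7 measured membrane and membrane skeleton genes were the most mixed. Slc4a1, which encodes the anion exchanger band 3, gave 10108, 5574, 14185, 12009 and 15306 in normal males and 24985, 19288, 14582, 15239 and 17480 in Hyp males. In females it gave 10526, 5996, 10757, 7609 and 8081 in normal mice and 10682, 7595, 9746, 12802 and 9031 in Hyp mice. Slc4a1 was higher in Hyp in 9 of 10 pairs, with the exception of female pair 3, yet the highest normal male exceeded 2 of the Hyp males. Its difference was 0.73 ± 0.21 in males and 0.23 ± 0.21 in females, with adjusted p of 0.11 and 0.772.

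Add2, the beta subunit of the spectrin-binding protein adducin, was the single member higher in Hyp in all 10 pairs. Its signals were low, at 218, 272, 203, 226 and 179 in normal males and 488, 457, 253, 321 and 206 in Hyp males. In females they were 190.2, 175, 136, 213 and 216 in normal mice and 275, 219, 255, 363 and 238 in Hyp mice. The Hyp females all lay above the normal females, as in 0.689% of all probe sets, with the nearest values 219 and 216, while the male groups overlapped. Add2 differed by 0.53 ± 0.13 over both sexes (adjusted p = 0.0449 in limma), 0.56 ± 0.18 in males and 0.50 ± 0.18 in females. This probe set was called present on 3 of 5 Hyp female and 5 of 5 normal female arrays. The other 3 tested probe sets of Add2 gave 0.35, 0.54 and 0.62 over both sexes. In females they gave 0.17, 0.21 and 0.46, and each 95% interval held 0. The call was lost in 21 of 25 fits that each left out a series or an array, and the lowest of those values was 0.46.

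Among the remaining membrane genes, Epb42, which ties band 3 to the skeleton, differed by 0.89 ± 0.30 in males and -0.08 ± 0.30 in females. Aqp1, a water channel that vessel walls also express, differed by 0.31 ± 0.14 and 0.26 ± 0.14, and Ank1, erythroid ankyrin, by 0.21 ± 0.16 and 0.06 ± 0.16. Tmod1, a cap of actin filaments present in muscle too, differed by -0.10 ± 0.22 and 0.14 ± 0.22. Sptb, erythroid beta spectrin, also made in muscle, differed by -0.37 ± 0.22 in males through its brighter probe set and by 0.82 ± 0.26 through the other, so its probe sets disagree in sign. The same held for Ank1, whose other probe set gave -0.37 ± 0.18 in males.

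Blood group and Rh complex genes were higher in Hyp than in normal males, where the 5 measured members differed by 0.79 (Icam4) to 0.98 (Rhd), and none was called after adjustment. Rhag, the Rh-associated glycoprotein, gave 1462, 1512, 4195, 2048 and 3473 in normal males and 7728, 4292, 3821, 3439 and 4289 in Hyp males. In females it gave 1729, 1574, 2628, 1270 and 2279 in normal mice and 2696, 1642, 2272, 2203 and 1656 in Hyp mice. The Hyp male of series 1 lay far above every other array and the normal male of series 3 lay among the Hyp males. Rhag differed by 0.96 ± 0.27 in males and 0.16 ± 0.27 in females, with adjusted p of 0.104 and 0.888. Rhd, Ermap, Kel and Icam4, which carry blood group antigens, ran between -0.02 and 0.09 in females.

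Of the 6 measured enzymes and other erythroid genes, Mfsd2b, a sphingosine-1-phosphate exporter of red cells, was called through its brightest probe set. Its signal was 393, 358, 899, 398 and 760.0 in normal males and 1038, 1097, 1290, 954 and 766 in Hyp males. In females it was 329, 383, 684, 356 and 304 in normal mice and 887, 502, 611, 575 and 423 in Hyp mice. It was higher in Hyp in 9 of 10 pairs, and only the normal mice of series 3 reached into the range of the Hyp group of their sex. Mfsd2b differed by 0.74 ± 0.16 over both sexes (adjusted p = 0.0306 in limma), 0.94 ± 0.23 in males and 0.55 ± 0.23 in females. Its second probe set gave 0.50. The call was lost in 14 of 25 fits that left out a series or an array, with values from 0.58 upward.

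Car1, a red cell carbonic anhydrase, gave 979, 678, 2063, 811 and 1716 in normal males and 3871, 2834, 1778, 1328 and 1995 in Hyp males. In females it gave 797, 902, 1173, 539 and 1273 in normal mice and 1438, 1005, 1009, 949 and 1203 in Hyp mice. The Hyp males of series 1 and 2 were the highest of all arrays, and the others lay among the normal males. Car1 differed by 0.94 ± 0.27 in males and 0.30 ± 0.27 in females, with adjusted p of 0.108 and 0.76. Male differences were 0.90 for Hemgn, a nuclear protein of blood progenitors, 0.91 for Tspan33, a tetraspanin, 0.72 for Trim10 and 0.14 for Bpgm, which makes the bisphosphoglycerate that lowers the oxygen affinity of hemoglobin. The other probe sets of Tspan33 gave 1.03 ± 0.21 and 0.60 ± 0.23 in males, with adjusted p of 0.0588 and 0.194 in limma, and 0.21 and -0.12 in females.

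**Figure D2:**
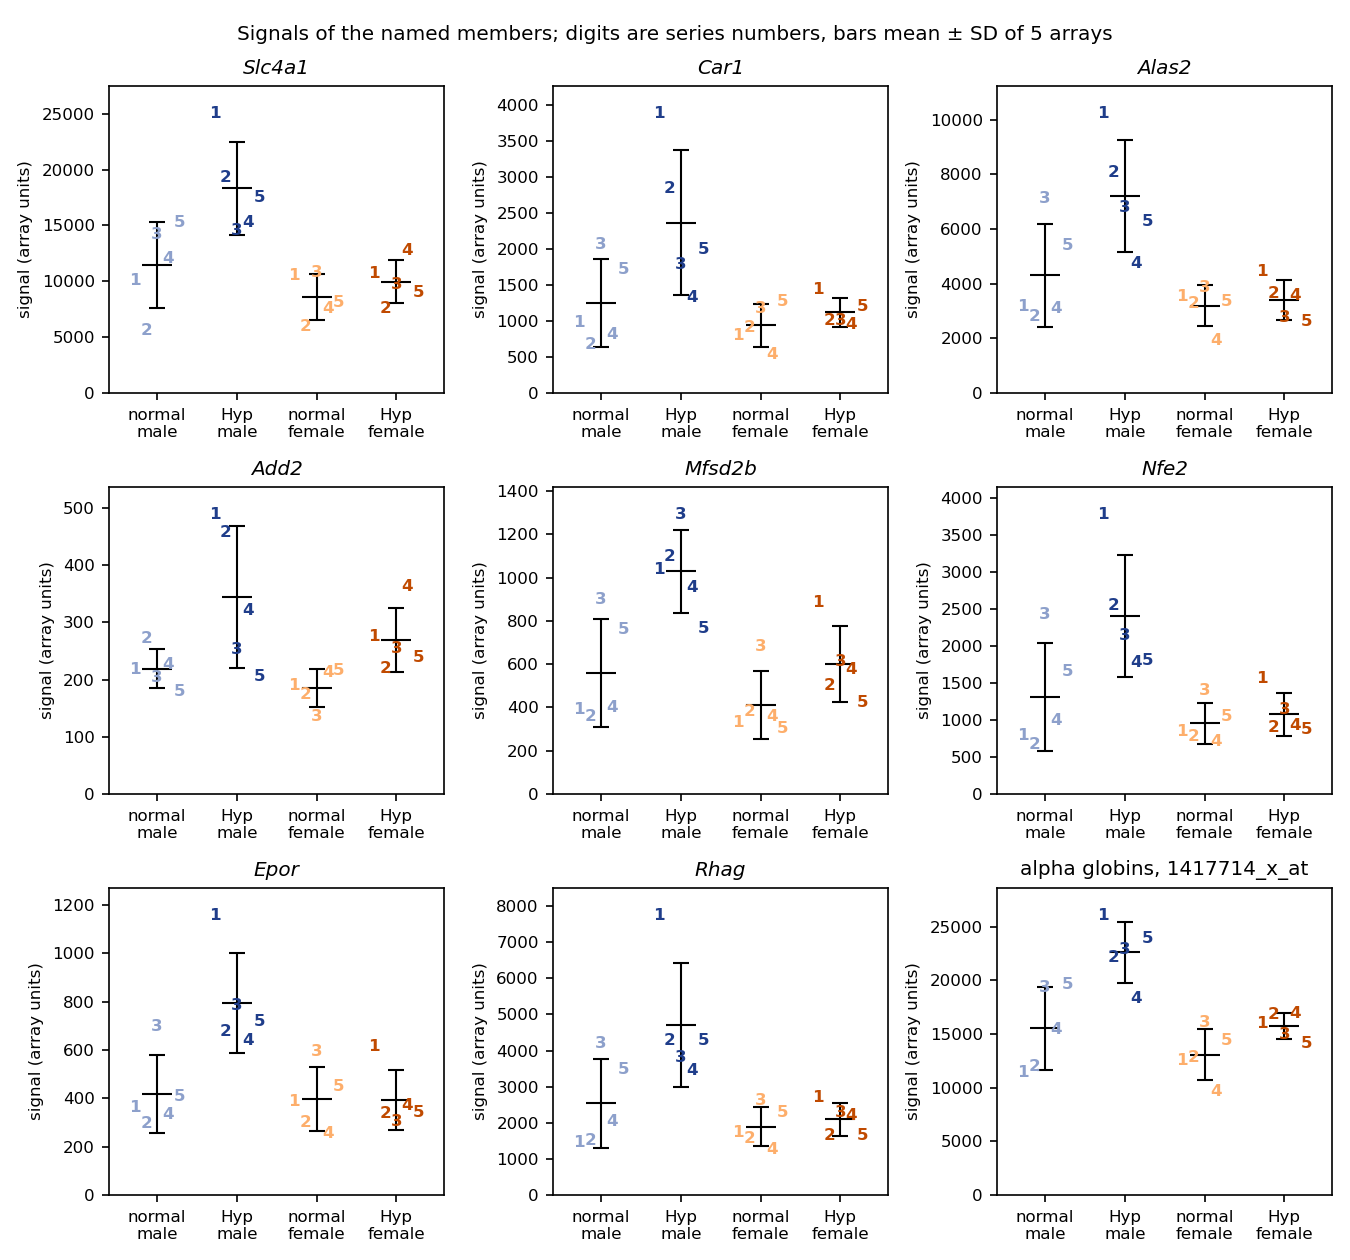
Deposited signal (vertical axis, from 0) of 8 named members and of the dimmest of 3 alpha globin probe sets on every array; digits give the series of each array, bars the mean ± SD of 5 arrays. The Hyp male of series 1 is the highest array in 8 of the 9 panels, the exception being Mfsd2b, where it is the Hyp male of series 3 at 1290.

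The globins were near the top of every array. The 3 probe sets shared by Hba-a2 and Hba-a1, the alpha globins, and the 1 shared by 4 beta globin symbols were each above 0 in Hyp in both sexes, by 0.21 to 0.57. None was called, with adjusted p between 0.0549 and 0.126 over both sexes in limma. The brightest alpha probe set ranked between 8 and 22 among all probe sets on its array. It gave 59329, 47608, 38351, 40212 and 43474 in normal males and 54605, 49166, 49136, 50898 and 58891 in Hyp males. The dimmest alpha probe set ranked between 113 and 511 and gave 11442, 11928, 19305, 15366 and 19576 in normal males and 25989, 22097, 22867, 18269 and 23897 in Hyp males. Its values in females were 12502, 12810.1, 16063, 9619 and 14391 (normal) and 15968, 16769, 14926, 16869 and 14124 (Hyp). The beta globin probe set gave 49484, 44344, 39591, 37277 and 40172 in normal males and 51033, 46463, 47164, 48332 and 54325 in Hyp males. The male groups overlapped for all 3 of these probe sets, and Hyp was higher in each male pair of series 3 to 5. In male series 1 the brightest differed by -0.12 and the dimmest by 1.18, and in male series 2 by 0.05 and 0.89, so probe sets of the same genes disagree there. Whether the brightest probe sets still follow the amount of RNA at such signals was not tested. Over the 4 globin probe sets the mean difference was 0.31 ± 0.067 in males and 0.27 ± 0.27 in females (SD, n = 5 pairs), higher in 5 of 5 and 4 of 5 pairs.

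The genotype difference was larger in males than in females for 30 of 33 members, with a median interaction of -0.60 on the log2 scale, female minus male. No member passed the adjusted threshold for interaction in limma, which 0.00368% of all probe sets did, and 7 were past the unadjusted one on the negative side against 3.31% of all. For Epor the interaction was -0.93 ± 0.30 with an adjusted p of 0.751. In the authors' deposited table the interaction was past p < 0.05 for 2 of 33 members, Epor and Tal1, and for 6.82% of all probe sets. The male and female differences are therefore not shown to differ after adjustment.

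Most members had lower signals in females than in males. Over both genotypes the median of female minus male was -0.59, with 31 of 33 members lower in females. None was called in limma, against 0.133% of all probe sets, and 29 were lower at an unadjusted p under 0.05 against 7.93% of all. In the authors' deposited table sex was past p < 0.05 for 29 of 33 members and 14% of all probe sets. The sexes lay apart among the Hyp mice, where the median was -0.89 and 28 members were lower at an unadjusted p under 0.05 against 8.98% of all. Sptb alone was higher at that level, against 7.88% of all. No member was called there either, against 0.111% of all probe sets. In 22 of 33 members every Hyp male exceeded every Hyp female, as in 2.57% of all probe sets. Among brightest probe sets Epb42 had the largest such difference, -1.34 ± 0.30 with an adjusted p of 0.068 in limma. In normal mice the median was -0.25, no member was called against 0.0774% of all probe sets, and 1 (Ank1) was lower at an unadjusted p under 0.05 against 1.96%. Ank1 differed there by -0.34 through its brightest probe set and by 0.07 through the other, so they disagree in sign. In 0 of 33 did every normal male exceed every normal female, against 0.221% of all. Megakaryocyte, neutrophil and cell division lists were lower in females as well. Their medians were -0.56 for megakaryocytes (6 of 6 below 0), -0.47 for neutrophils (11 of 11) and -0.43 for cell division (17 of 17). Of these, 5, 8 and 15 were lower past the unadjusted threshold. B lymphocyte and macrophage markers had medians of 0.03 (3 of 8 below 0) and -0.04 (4 of 6). The part of these lists in the members' sex difference was not tested. These sex contrasts use the same Hyp and normal arrays as the genotype contrasts.

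**Figure D3:**
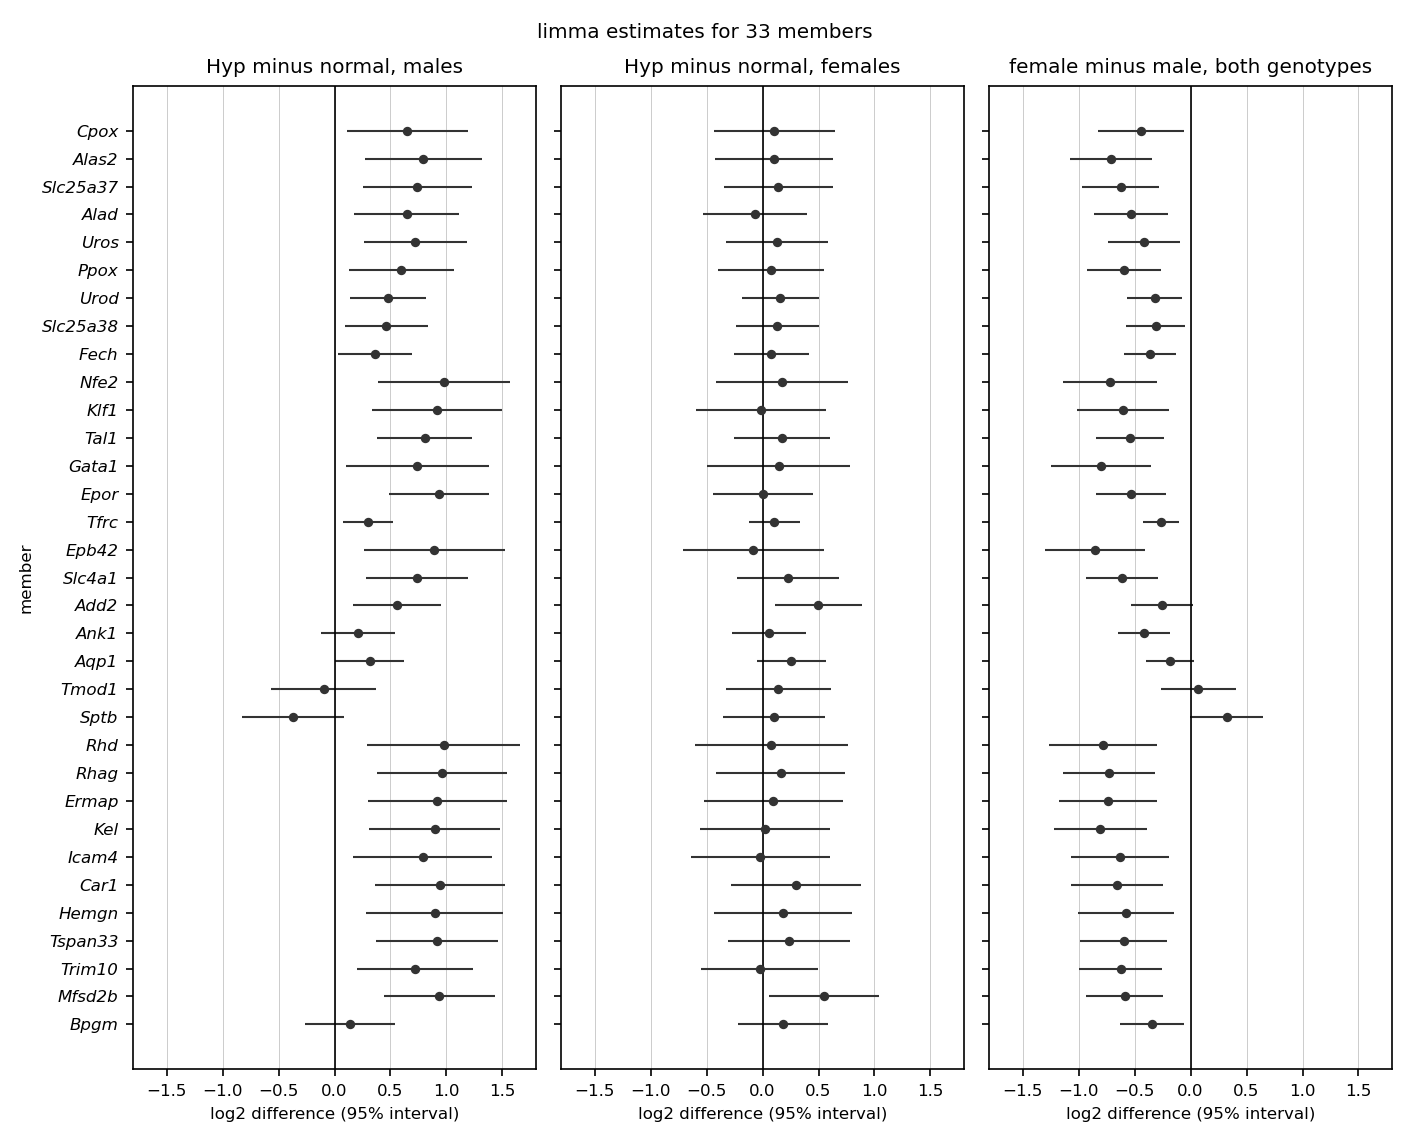
limma's log2 difference with its 95% interval for 33 members, for Hyp minus normal in males, in females, and for female minus male over both genotypes. Points lie right of 0 in males apart from Sptb and Tmod1. In females the intervals hold 0 for all but Mfsd2b and Add2, at 0.55 and 0.50. For sex, points lie left of 0 apart from Sptb and Tmod1.

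Differences between series that all 4 groups shared were few. The test for them did not cover whether the Hyp minus normal difference varied between series, which is described above by pair. None of the 33 was called for differences between the 5 series, against 7.43% of all probe sets, and 3 were past the unadjusted threshold, Ank1, Aqp1 and Epb42, against 24.1% of all. The authors' deposited table named 3 for block, Ank1, Tfrc and Aqp1, with 23.4% of all probe sets past p < 0.05.

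Arrays were ranked by the mean of the 33 members, each centred on its own mean over 20 arrays. Hyp male 1 was highest at 1.11, with 29 of 33 members at their highest there, and Normal female 4 was lowest at -0.76, with 22 members at their lowest. Hyp males ran from 0.26 to 1.11 with a mean of 0.58 ± 0.33 (SD, n = 5). Normal males spread most, with -0.37, -0.47, 0.60, -0.34 and 0.23 in series 1 to 5, a mean of -0.07 ± 0.46. Normal females averaged -0.32 ± 0.29 and Hyp females -0.19 ± 0.18. All 5 Hyp males stood above every female and above every normal male but Normal male 3, which ranked above 3 of the Hyp males. The normal males of series 1, 2 and 4 lay among the females.

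Early and late members were parted by textbook stage. The early members were Gata1, Tal1, Epor, Klf1 and Tfrc, of the progenitor and proerythroblast. The late ones were 10 measured genes of hemoglobin-making cells, among them Alas2, Slc4a1 and Epb42. They include Tmod1, present in muscle too, the 1 late member below 0 in males, at -0.10. The globins, measured only through shared probe sets, were left out of the late mean. The Hyp minus normal mean was 0.74 ± 0.65 for early and 0.61 ± 0.64 for late members in males, and 0.08 ± 0.50 and 0.15 ± 0.40 in females (SD, n = 5 pairs). Late minus early was negative in 4 of 5 male pairs, with a mean of -0.13 ± 0.16, and positive in 4 of 5 female pairs, with a mean of 0.07 ± 0.20, each within 1 SD of 0. Members that cells of many kinds also make, such as Alad, Urod, Tfrc and Aqp1, averaged 0.45 ± 0.46 in males against 0.72 ± 0.75 for the rest.

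**Figure D4:**
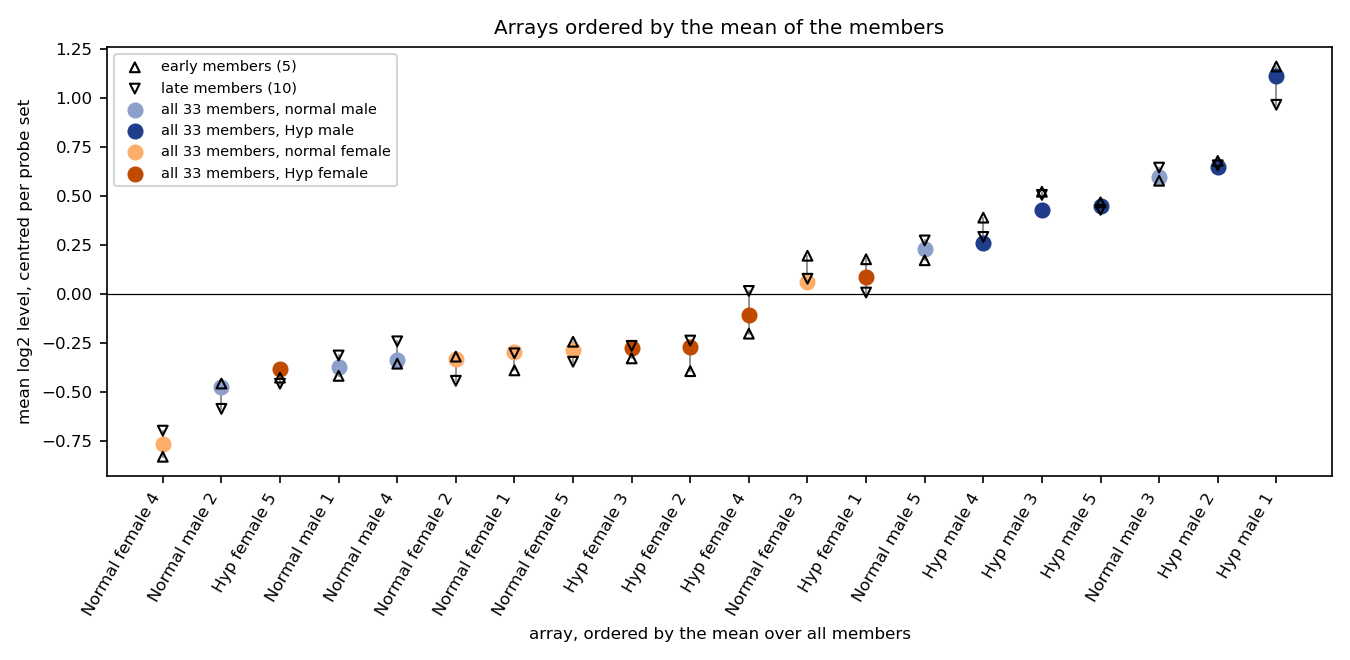
Mean log2 level of the members on each of 20 arrays, centred per probe set, in rising order (horizontal axis); filled circles are all 33 members coloured by group, open triangles the 5 early and 10 late members. Early and late triangles follow the circles from -0.76 on Normal female 4 to 1.11 on Hyp male 1.

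Other genes of the lineage, taken from a list apart from the members, had a lower median than the members. Their values over both sexes ran from -0.316 to 0.709. That list was not parted into genes that cells of many kinds make and the rest. Of 36 genes, 26 were measured, 20 of them above 0 over both sexes with a median of 0.23. None was called, against 1.08% of all probe sets higher and 1.30% lower, and 9 were higher and 1 lower at an unadjusted p under 0.05, against 11.5% and 8.73%. In males the median was 0.46 and in females -0.01. The largest differences over both sexes were those of Gfi1b, a repressor needed for red cell and platelet formation, E2f2, a cell cycle factor of late erythroblasts, and Lmo2, the bridge between Tal1 and Gata1. Gfi1b gave 349, 249, 518, 403 and 950.2 in normal males and 1487, 842, 736, 731 and 790.0 in Hyp males, with the normal male of series 5 above all but 1 of the Hyp males. E2f2 gave 538, 524, 1756, 887 and 1521 in normal males and 2492, 1900.3, 1638, 1637 and 1511 in Hyp males. Lmo2 gave 1229, 1190.1, 3033, 1792 and 2705 in normal males and 4721, 3251, 3332, 3248 and 3256 in Hyp males. In Lmo2 alone of these 3, picked for their large differences, every Hyp male exceeded every normal male, as in 1.58% of all probe sets.

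Markers of other cells that a flushed shaft can hold were read beside these genes. Over both sexes 1.08% of all probe sets were called higher and 1.30% lower, against which the calls in these lists are to be read. For megakaryocytes 6 markers were measured. Their median difference was 0.64 over both sexes with 1 called, and their summed signal ran in males from 5835 to 16925 (normal) and 12242 to 30662 (Hyp). In females it ran from 6841 to 12892 (normal) and 7911 to 20456 (Hyp). The megakaryocyte pair means in males were 1.25, 2.00, 0.33, 1.20 and -0.26 in series 1 to 5. Of 18 cell division genes 17 were measured, without Ccnb1, with a median of 0.41 and 1 called. Their summed signal ran in males from 33466 to 67824 (normal) and 65383 to 92697 (Hyp), and in females from 34713 to 53794 (normal) and 35877 to 52888 (Hyp). The pair means in males were 1.46, 1.06, 0.02, 0.60 and 0.19, in the order of the members' own.

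Endothelial markers, all 11 measured, had a median of 0.34 with 3 called, and summed in males to between 11618 and 15758 (normal) and 15953 and 22154 (Hyp), and in females to between 11626 and 17153 (normal) and 15451 and 20090 (Hyp). The 11 measured neutrophil markers of 12 had a median of 0.03 over both sexes. In males all 11 were above 0 with a median of 0.33, and their pair means were 0.47, 1.20, 0.04, 0.56 and -0.26. Their summed signal ran in males from 65017 to 113160 (normal) and 83376 to 128146 (Hyp), and in females from 49871 to 78212 (normal) and 34273 to 134563 (Hyp). The 8 B lymphocyte markers of 10 had a median of -0.31, the 6 macrophage markers of 7 a median of -0.07 and the 6 muscle markers a median of 0.08, and none of these, nor of the neutrophil markers, was called. The 7 measured bone markers of 9 had a median of -0.75, with 3 called lower. The list includes Phex, the gene mutated in Hyp, and its lowest difference was -4.45. Its summed signal ran in males from 130672 to 193815 (normal) and 124992 to 175417 (Hyp). In females it ran from 127729 to 173032 (normal) and 141225 to 169216 (Hyp). The part of megakaryocytes, neutrophils, dividing cells, vessels or actin ratio in the members' differences was not tested. With the actin ratio as a covariate the male median was 0.79 and the both-sex median 0.425, and no member was called.

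**Figure D5:**
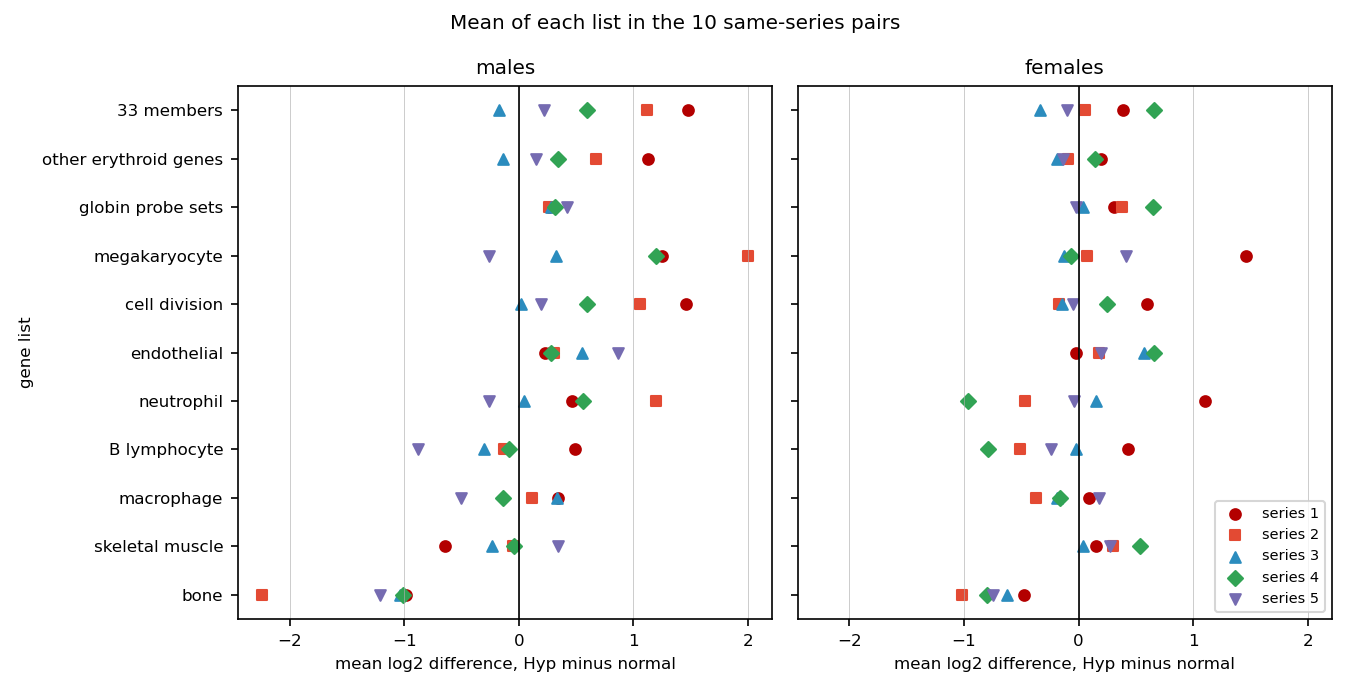
Mean log2 difference, Hyp minus normal, of each gene list (vertical axis) in the 5 male and 5 female pairs; symbols stand for series. In males series 1 and 2 lie right of 0 for the members, at 1.48 and 1.12. So they do for the other erythroid, globin, megakaryocyte, cell division, endothelial, neutrophil and macrophage lists. Bone, a list that includes Phex, the gene mutated in Hyp, lies left of 0 in all 10 pairs.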

How the data were processed

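The authors deposited one signal intensity per probe set and array, linear and in fluorescence units per the file headers. It came from GCOS per the submitters' processing notes; its version, settings and scaling target are not given in the sources used here. They also deposited detection calls and, as a score per probe set, F statistics from an analysis of variance with genotype, sex and block, with P classes as text; recomputed for the 70 probe sets that name a member, the genotype F differed by at most 2.12e-11 in relative terms. Probe sets were named through the platform's gene table, where 34958 carry 1 symbol, 932 several and 9211 none; 0 symbols changed through the gene identifier, and 0 columns of sample values were left unused.

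Signals were taken as log2(signal + 16). Fold differences on this scale understate those of dim genes. Control probe sets (64) and those called present on fewer than 5 arrays were left out. limma 3.58.1 under R 4.3.3 (lmFit, eBayes; 12 residual and 3.44 prior degrees of freedom) fitted the 4 groups with series as a block to all 27141 probe sets, with 2-sided p adjusted by Benjamini and Hochberg over all of them and a threshold of 0.05. The SE of a difference had a median of 0.115 with the sexes together and 0.162 in 1 sex; arrays give no depth, and their number limits the precision. The fit was tested on simulated data with 200 changed genes. Tables were made with Python 3.11.15, numpy 2.4.6, pandas 2.3.3 and scipy 1.17.1.

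The block follows the labels, which match each series for littermates and handling. Deviations from the group means correlated, across probe sets, on average by 0.15 to 0.287 between arrays of one series and by -0.05 between arrays of different series. Each array pools 2 mice.

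Each gene is represented by its brightest probe set, by mean log2 signal. Values on every array are given for Slc4a1, Car1, Alas2, the globins, members past the threshold and the member with the largest difference over both sexes in each role. Members and lists were chosen with earlier results of these data known, and the sex contrasts within normal and within Hyp mice were added after seeing the data. Alternatives covered the pseudocount, the filter, the block, quantile normalization, array weights, the actin ratio, sets of series, the mean of a gene's probe sets, and each series and array left out.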

Additional observations from a re-analysis of the deposited data

Results flagged for a closer look

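Of 56 groups of 5 arrays tested for a value standing apart from the other 4, 6 held one by Dixon's criterion; chance flags about 1 in 20 groups. Epor gave 3 of them: 698.6 on Normal male 3 with the next value at 405.6, 1154 on Hyp male 1 with the next at 782, and 612.9 on Hyp female 1 with the next at 371.7. Rhag stood at 7728 on Hyp male 1, the next Hyp male being at 4292. Mfsd2b stood at 683.9 on Normal female 3, the next normal female being at 382.9. The late minus early difference was -0.1296 on Normal male 2, below the nearest normal male at 0.06738.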

How the results depend on the processing

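Over both sexes 2 members were called, and 0 with no filter, with no replicate block, with the actin ratio as a covariate, with series 1 and 2 only and with series 3 to 5 only; with series as a random replicate block 2 were called. Leaving out 1 series or array gave 0 to 9 calls: 9 without Normal male 3, 5 without series 3, and 0 without series 1, 2 or 4; the median ran from 0.22 to 0.612. Mfsd2b lost its call in 14 of 25 such fits and 5 of 12 other settings (adjusted p in limma from 0.0127 to 0.394), and Add2 in 21 of 25. With no filter Add2 was read through another probe set, never called present, and turned to -0.0289 over both sexes, -0.0929 in males and 0.0133 for sex; its sex difference was 0.00296 in series 3 to 5 only. In males the median was 1.5 in series 1 and 2 only and 0.539 to 0.949 with 1 series or array left out. Male calls were 1 with a pseudocount of 64 and 3 with presence on all 20 arrays, and 0 to 3 with 1 left out (3 without Normal male 3). The interaction median was -1.24 in series 1 and 2 only, and the sex median in normal mice there was 0.149. Sex calls over both genotypes ran from 0 to 5 (5 without Normal male 1). In Hyp mice sex calls were 6 with a pseudocount of 64, 15 with presence on all 20 arrays, 2 with the mean of all probe sets, and 0 to 12 with 1 left out (12 without Normal male 1, 4 without Normal male 5). Series calls were 1 with the mean of all probe sets. The female median ran from -0.0114 (without series 4) to 0.235 (without series 3). Hyp male 1 stayed highest and Normal female 4 lowest in the array order. The cause of these shifts was not tested, beyond the change of probe set for Add2.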
